A study of Rattus norvegicus with 14 samples.

Results

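In liver, 9 genes of peroxisomal and omega-oxidation of fatty acids were examined together: Acaa1a, Acaa1b, Ehhadh, Cyp4a1, Cyp4a2, Cyp4a3, Cat, Slc27a2 and Fabp1. Every probe set of the array whose annotated gene symbol is, or contains, 1 of these 9 names was taken, which gave 13 probe sets for 9 of the 5147 genes annotated on the array. Of the 13 probe sets, 11 carry 1 symbol and 2 carry several. Acaa1a was measured only by a probe set annotated to both Acaa1a and Acaa1b, and Cyp4a2 only by a probe set annotated to both Cyp4a2 and Cyp4a3, so neither has a value of its own. Of the 13 probe sets, 12 were bright enough to be tested, and 1 of 3 for Cat was too dim.

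The samples were livers of male rats aged 74 days that had been fed a special diet for 53 days. One group was labelled vitamin A-deficient and the other vitamin A-sufficient, with 7 arrays of each. The labels give neither the strain nor the vitamin content of the diets. Targets were made from about 10 µg of total RNA for 4 arrays of each diet and from about 2 µg for 3 arrays of each diet. The labels number the samples of each diet 1 to 4, and each probe set was averaged over the arrays that share a diet and a number, which left 4 values for deficient and 4 for sufficient livers. Number 3 of each diet was measured at 10 µg alone. Below, a liver with a number, or 1 liver left out, stands for such a numbered sample. Whether the arrays of 1 number came from the same liver is not stated, and nothing says that the numbers are separate animals, so the spread behind each p-value is that between numbered samples and may be technical. The RNA came from liver tissue with all its cells, in which fewer cells of a type and less RNA per cell cannot be told apart.

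Peroxisomes shorten very long-chain and other fatty acids by beta-oxidation, passing hydrogen peroxide to catalase. The Cyp4a enzymes, in the endoplasmic reticulum, hydroxylate fatty acids at the omega end. In rat liver many of these genes are known targets of the nuclear receptor PPARα, which binds DNA together with the retinoid X receptor (RXR), a receptor that also pairs with the retinoic acid receptors. The binding element for the PPARα and RXR pair is a repeat of the nuclear receptor hexamer with 1 base between the copies, called DR1.

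The promoter sequences of the members were read from the RefSeq promoter table, build GRCr8, which matched 8 of the 9 genes. Cyp4a1 was not matched. Each 300-base window, running 250 bases before to 50 bases after the start of the gene, was searched on both strands for a DR1, written as 2 copies of AGGNCA with any 1 base between them, and for the single hexamer AGGTCA. The hexamer can lie within a DR1. Among the 33469 promoters of the table, 139 (0.415%) held the DR1 and 5415 (16.2%) held the hexamer. Of the 8 members, 1 held the DR1 and 5 held the hexamer.

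Fabp1 is shown because its promoter was the 1 member promoter with a DR1, at positions -77 to -65 from the start, on the opposite strand; the hexamer lies within it at -77 to -72. The 150 bases before the start lie on the plus strand at chr4:104749190-104749339, and the capitals mark the DR1.
Fabp1: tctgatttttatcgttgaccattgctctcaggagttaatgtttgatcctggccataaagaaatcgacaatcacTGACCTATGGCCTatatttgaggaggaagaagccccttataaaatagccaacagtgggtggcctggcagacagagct

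Cyp4a2 and Cyp4a3 are shown together because 1 probe set is annotated to both. Their promoters were 93.1% identical, with 284 identical of 305 aligned positions. Both held the hexamer, in capitals, at -105 to -100. Both lie on the minus strand, at chr5:134170909-134171058 for Cyp4a2 and at chr5:134352237-134352386 for Cyp4a3.
Cyp4a2: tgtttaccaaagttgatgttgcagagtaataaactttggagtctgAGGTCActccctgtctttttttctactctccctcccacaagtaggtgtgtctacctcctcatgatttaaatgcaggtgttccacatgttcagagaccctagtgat
Cyp4a3: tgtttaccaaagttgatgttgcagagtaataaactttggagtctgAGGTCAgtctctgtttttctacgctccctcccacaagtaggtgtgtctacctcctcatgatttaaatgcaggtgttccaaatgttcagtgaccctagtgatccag

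Acaa1b and Acaa1a are shown because they are the 2 thiolase genes that the array measured in part together. Their promoters were 45.5% identical, with 151 identical of 332 aligned positions. These letters were not in either window, so there are no capitals. Acaa1b lies on the minus strand at chr8:127759570-127759719 and Acaa1a on the plus strand at chr8:127957331-127957480.
Acaa1b: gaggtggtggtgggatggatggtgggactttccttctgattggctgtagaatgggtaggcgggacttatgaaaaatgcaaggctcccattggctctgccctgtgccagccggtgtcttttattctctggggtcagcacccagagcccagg
Acaa1a: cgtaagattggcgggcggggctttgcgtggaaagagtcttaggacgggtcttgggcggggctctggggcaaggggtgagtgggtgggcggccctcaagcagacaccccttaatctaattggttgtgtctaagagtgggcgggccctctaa

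Of the other members, Cat held the hexamer at -169 to -164 and Slc27a2 held it at -76 to -71, and the window of Ehhadh had neither motif. A match of letters is a description of the window and was not tested as a binding site.

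The comparison of vitamin A-deficient with vitamin A-sufficient livers asks which of these genes differ with the vitamin A content of the diet. Levels are log2 of the scaled intensity plus 16, and each difference is deficient minus sufficient on that scale, which understates the change of dim probe sets. A call is an adjusted p under 0.05 from limma over all 5244 probe sets tested. Acaa1b fell in deficient livers, and 1 of the 3 Cyp4a1 probe sets rose. The other 10 of the 12 tested probe sets, those of Ehhadh, Cat, Slc27a2, Fabp1, the Cyp4a2 and Cyp4a3 probe sets and the remaining Acaa1 and Cyp4a1 probe sets, did not pass. Over all probe sets tested, 90 (1.72%) were called, 39 of them higher (0.744%) and 51 lower (0.973%), and 759 (14.5%) had an unadjusted limma p under 0.05, which is the share to read the lists of other genes against. Of the 12 tested probe sets, 6 had a positive difference and 6 a negative one, with a median of 0.02, against a median of 0.04 over all probe sets tested. The median absolute difference was 0.33 over the 12 probe sets and 0.16 over all. The deficient and sufficient values did not overlap for 3 probe sets that were higher and 1 that was lower in deficient livers. The higher ones belong to Cyp4a1, which is counted more than once, and Slc27a2, and the lower one to Acaa1b. Over all probe sets tested, 306 (5.84%) had no overlap and were higher, and 161 (3.07%) had no overlap and were lower.

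**Figure D1:**
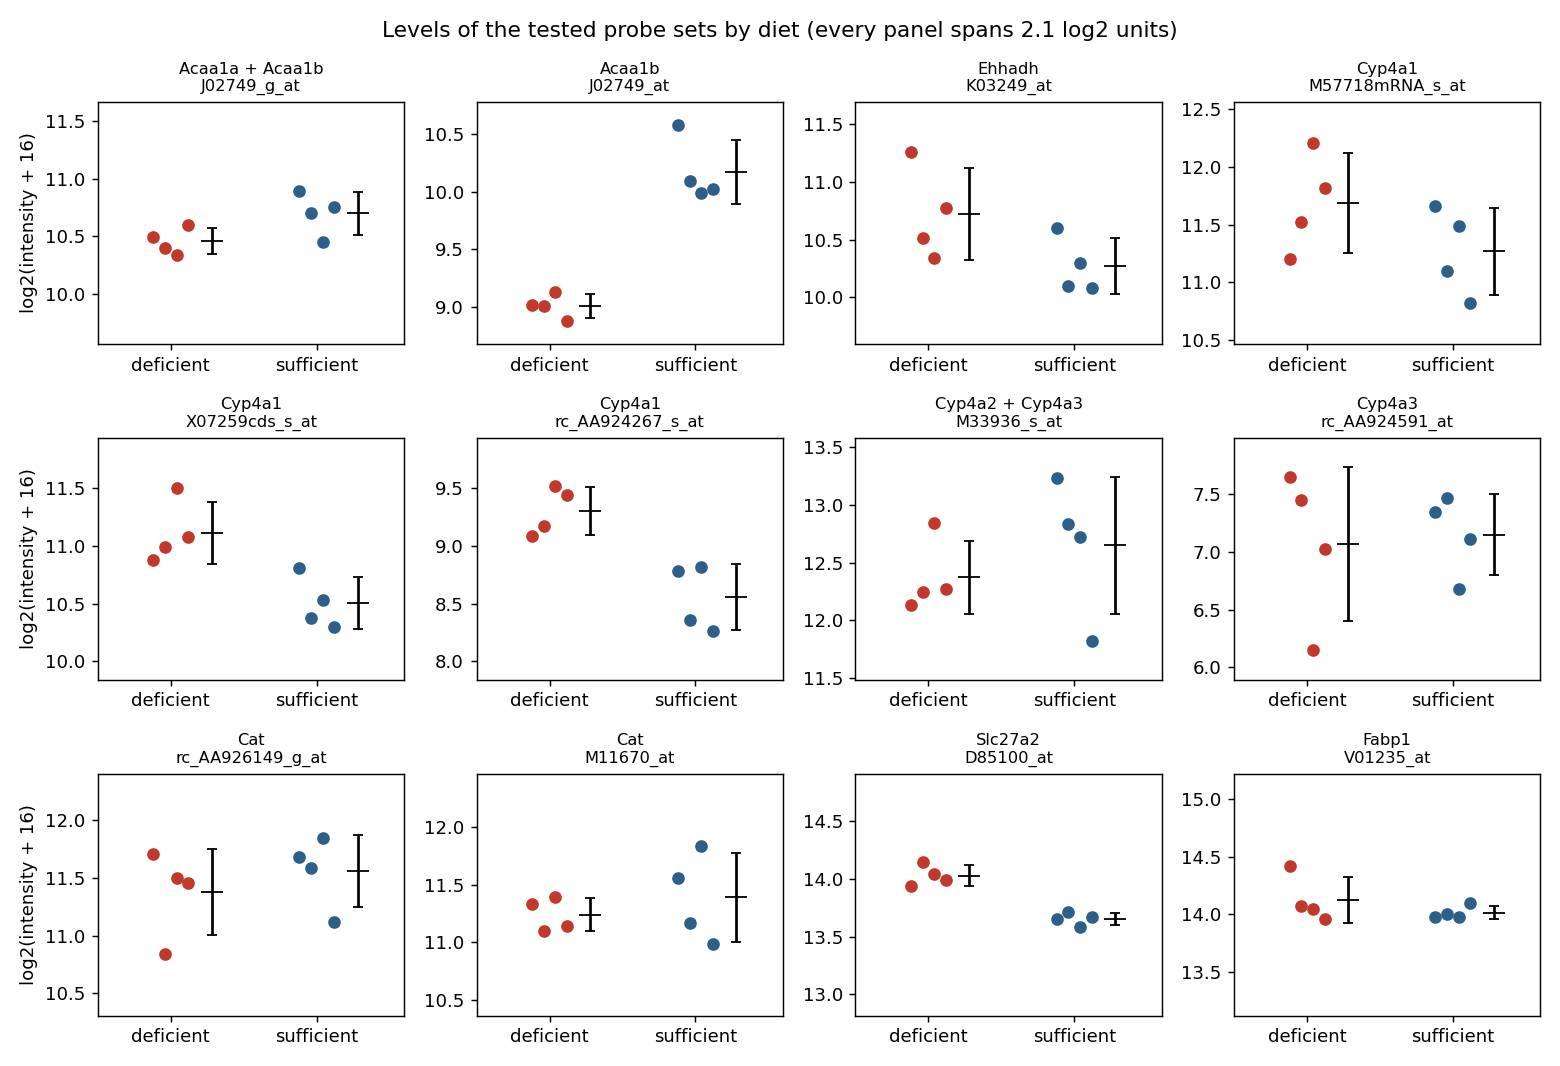
Level of the 12 tested probe sets, as log2 of the scaled intensity plus 16, in deficient livers (red, left) and sufficient livers (blue, right). Each dot is 1 of 4 averaged values per diet, from number 1 on the left to number 4, and the bar is the mean ± SD. Every panel spans the same height, so the spread can be compared between panels but not the level. Acaa1b, at 8.88 to 9.13 in deficient livers and 9.99 to 10.58 in sufficient livers, has the widest gap between the diets.

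Acaa1b encodes a peroxisomal thiolase, which carries out the last step of each round of beta-oxidation and in rat liver is the form known to be induced by peroxisome proliferators. Its own probe set (J02749_at) had deposited intensities of 994, 925, 1079 and 875 on the 10 µg arrays of deficient livers 1 to 4, against 3018, 2239, 1980 and 2070 on those of sufficient livers 1 to 4. On the 2 µg arrays it had 1006, 1060 and 928 in deficient livers 1, 2 and 4, against 2978, 2024 and 1987 in sufficient livers 1, 2 and 4. All 7 deficient arrays lay below all 7 sufficient arrays, and sufficient liver 1 was the brightest at both amounts. The averaged levels were 9.02, 9.01, 9.13 and 8.88 in deficient livers, against 10.58, 10.09, 9.99 and 10.02 in sufficient livers. The means were 9.01 ± 0.10 in deficient livers and 10.17 ± 0.28 in sufficient livers (SD, n = 4 each). The difference was -1.16 (SE 0.15, 95% interval -1.48 to -0.84, limma adjusted p = 0.00187), a level 2.23-fold lower in deficient livers. The difference was -1.22 on the 10 µg arrays alone and -1.17 on the 2 µg arrays alone. Without sufficient liver 1 it was -1.02 (limma adjusted p = 0.00233).

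The probe set annotated to both Acaa1a and Acaa1b (J02749_g_at) had 10.49, 10.40, 10.34 and 10.60 in deficient livers, against 10.89, 10.70, 10.45 and 10.75 in sufficient livers. Acaa1a encodes the second peroxisomal thiolase of the rat, known for a more constant level in liver. The groups overlapped, since deficient livers 1 and 4 were above sufficient liver 3. The difference was -0.24 (SE 0.12, 95% interval -0.51 to 0.03, limma adjusted p = 0.418) and did not pass. The 2 probe sets share a stem in their names, and their averaged levels were subtracted after the values were seen. The Acaa1b probe set minus the shared one was -1.47, -1.40, -1.20 and -1.72 in deficient livers, against -0.31, -0.61, -0.46 and -0.73 in sufficient livers. The means were -1.45 ± 0.21 in deficient livers and -0.53 ± 0.18 in sufficient livers (SD, n = 4 each), a difference of -0.92. This difference was not tested, and it gives no separate value for Acaa1a.

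**Figure D2:**
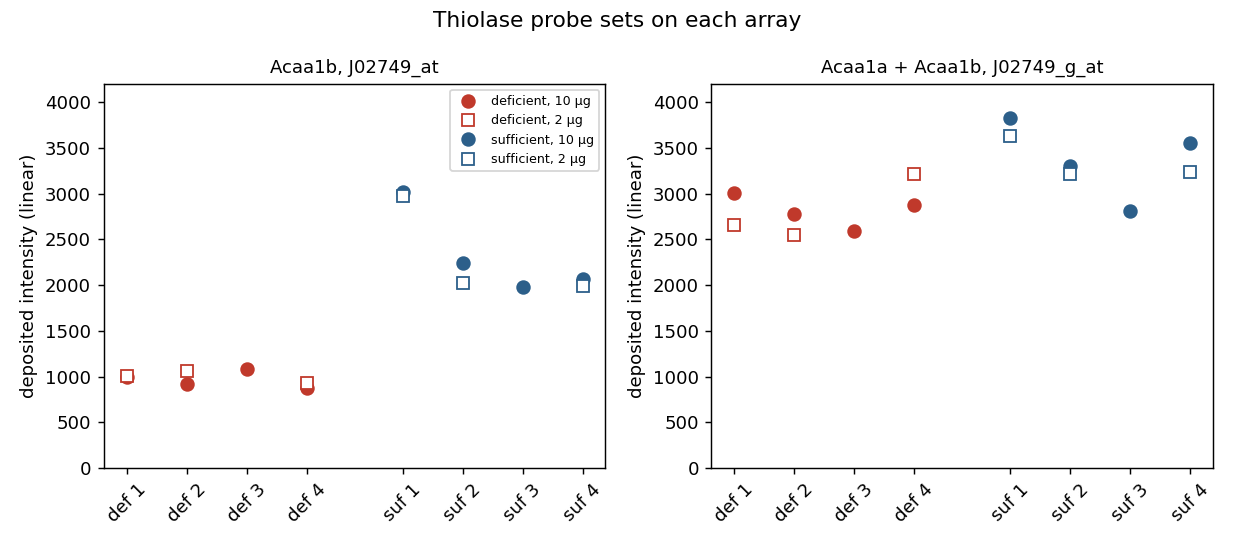
Deposited intensity, on a linear axis, of the Acaa1b probe set (left panel) and of the probe set annotated to both Acaa1a and Acaa1b (right panel) on each of the 14 arrays, with deficient livers (red, def) left of sufficient livers (blue, suf). Filled circles are 10 µg arrays and open squares are 2 µg arrays. For Acaa1b the 7 deficient arrays lie between 875 and 1079 and the 7 sufficient arrays between 1980 and 3018, and in the right panel the diets overlap.

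Ehhadh encodes the peroxisomal enzyme that carries out the hydration and dehydrogenation steps before the thiolase. Its probe set (K03249_at) had 11.26, 10.51, 10.34 and 10.77 in deficient livers, against 10.60, 10.10, 10.30 and 10.08 in sufficient livers. The groups overlapped, and number 1 was the highest of each diet. The means were 10.72 ± 0.40 in deficient livers and 10.27 ± 0.24 in sufficient livers (SD, n = 4 each). The difference of 0.45 (SE 0.20, 95% interval 0.02 to 0.88) did not pass over all probe sets (limma adjusted p = 0.327). Without deficient liver 1 it was 0.27.

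Cyp4a1 encodes an omega-hydroxylase of fatty acids such as lauric acid. Its 3 probe sets all had positive differences, and 1 of them passed. The probe set rc_AA924267_s_at had 9.09, 9.17, 9.52 and 9.44 in deficient livers, against 8.78, 8.36, 8.82 and 8.26 in sufficient livers. All 4 deficient values lay above all 4 sufficient values. The means were 9.30 ± 0.21 in deficient livers and 8.55 ± 0.28 in sufficient livers (SD, n = 4 each), a level 1.68-fold higher in deficient livers. The difference was 0.75 (SE 0.16, 95% interval 0.39 to 1.11, limma adjusted p = 0.0486). This call lies just inside the threshold. It was kept in 6 of 21 alternative settings, in which the difference ran from 0.65 to 0.84 and the limma adjusted p from 0.00308 to 0.162. It was lost without any 1 of deficient livers 1 to 4 or sufficient livers 2 to 4 (differences of 0.65 to 0.84), and kept without sufficient liver 1.

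The Cyp4a1 probe set X07259cds_s_at had 10.88, 10.99, 11.50 and 11.08 in deficient livers, against 10.81, 10.38, 10.53 and 10.30 in sufficient livers. These groups did not overlap either, although deficient liver 1 and sufficient liver 1 were close. The difference was 0.61 (SE 0.16, 95% interval 0.26 to 0.96, limma adjusted p = 0.0914), which did not pass. It passed in 1 of 21 alternative settings, in which the difference ran from 0.48 to 0.71 and the limma adjusted p from 0.0114 to 0.345. In that 1 setting all 14 arrays were fitted with a random block for each diet and number. The difference there was 0.58 (limma adjusted p = 0.0114), and 250 probe sets were called in all, against 90 in the main fit. The third Cyp4a1 probe set (M57718mRNA_s_at) had 11.20, 11.52, 12.21 and 11.82 in deficient livers, against 11.66, 11.10, 11.49 and 10.82 in sufficient livers. Here the groups overlapped, with deficient liver 1 below sufficient livers 1 and 3. Its difference was 0.42 (SE 0.23, 95% interval -0.08 to 0.92, limma adjusted p = 0.456), and it was 0.25 without deficient liver 3 and 0.27 without sufficient liver 4. In all 3 probe sets deficient liver 3 was the highest of its diet and deficient liver 1 the lowest, and sufficient liver 4 was the lowest of its diet.

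Cyp4a2 and Cyp4a3 encode further omega-hydroxylases of liver and kidney. The probe set annotated to both (M33936_s_at) had 12.13, 12.24, 12.84 and 12.27 in deficient livers, against 13.23, 12.83, 12.72 and 11.82 in sufficient livers. The sufficient livers spanned a 2.66-fold range that took in all the deficient values. The difference was -0.28 (SE 0.26, 95% interval -0.86 to 0.30, limma adjusted p = 0.711). It was -0.09 without sufficient liver 1 and -0.55 without sufficient liver 4. The dimmer probe set for Cyp4a3 alone (rc_AA924591_at) had 7.65, 7.45, 6.15 and 7.03 in deficient livers, against 7.35, 7.47, 6.68 and 7.11 in sufficient livers. It was lowest at number 3 in both diets. Its difference was -0.08 (SE 0.31, 95% interval -0.75 to 0.59, limma adjusted p = 0.952).

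The averaged level of the Cyp4a1 probe set M57718mRNA_s_at minus that of the probe set shared by Cyp4a2 and Cyp4a3 was taken. It was -0.93, -0.72, -0.63 and -0.45 in deficient livers, against -1.57, -1.72, -1.24 and -0.99 in sufficient livers. The 2 ranges did not overlap, although each of the 2 probe sets overlapped between the diets. The means were -0.68 ± 0.20 in deficient livers and -1.38 ± 0.33 in sufficient livers (SD, n = 4 each), a difference of 0.70. This pair was chosen after its values were seen and was not tested. How far transcripts of 1 Cyp4a gene reach the probe sets of another was not tested, so the values of single Cyp4a genes are uncertain.

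**Figure D3:**
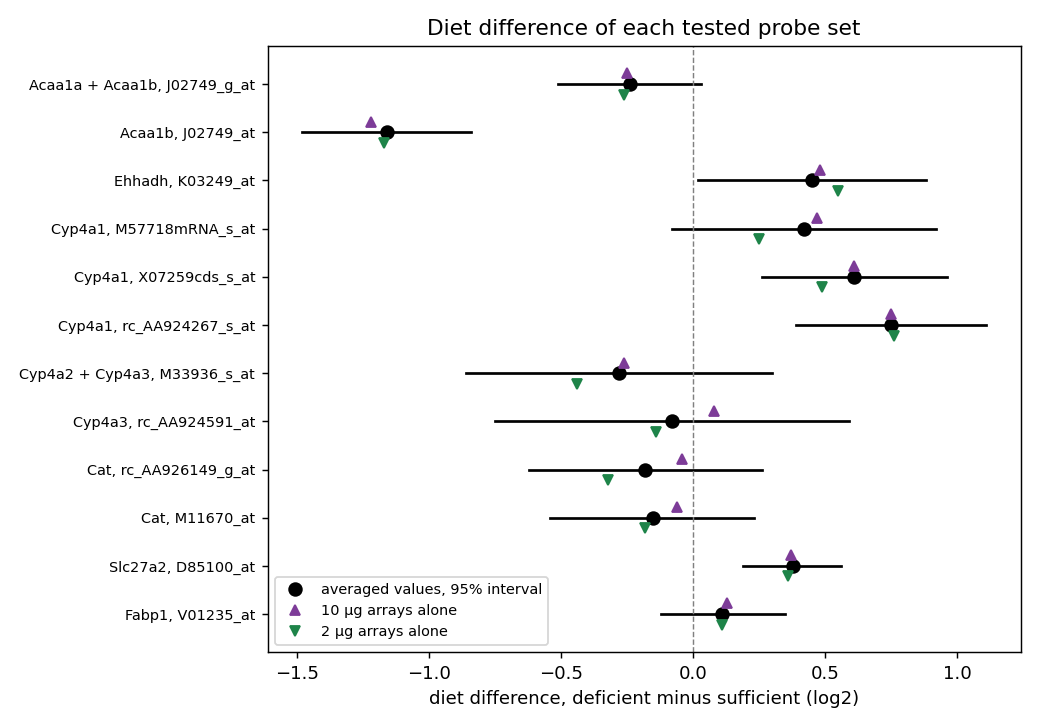
Diet difference, deficient minus sufficient on the log2 scale, of each tested probe set. Black dots and lines are the averaged values with their 95% interval, and triangles are the 10 µg arrays alone (purple) and the 2 µg arrays alone (green). Acaa1b lies at -1.16 with both amounts close to it, the 3 Cyp4a1 probe sets lie at 0.42, 0.61 and 0.75, and the intervals of Acaa1b, Ehhadh, Slc27a2 and the Cyp4a1 probe sets at 0.61 and 0.75 leave out 0.

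Cat encodes catalase, which breaks down the hydrogen peroxide made in the peroxisome. The probe set rc_AA926149_g_at had 11.71, 10.84, 11.50 and 11.46 in deficient livers, against 11.68, 11.59, 11.85 and 11.12 in sufficient livers. The probe set M11670_at had 11.33, 11.10, 11.39 and 11.14 in deficient livers, against 11.56, 11.17, 11.84 and 10.99 in sufficient livers. Both overlapped between the diets, and number 3 of the sufficient livers was the highest value in each. Their differences were -0.18 (SE 0.20, 95% interval -0.62 to 0.26, limma adjusted p = 0.769) and -0.15 (SE 0.17, 95% interval -0.54 to 0.23, limma adjusted p = 0.786). The first was 0.00 without deficient liver 2, and the second was 0.00 without sufficient liver 3 and -0.29 without sufficient liver 4. The dim probe set rc_AA926149_at, at 5.18 ± 0.36 in deficient livers and 5.17 ± 0.45 in sufficient livers (SD, n = 4 each), was not tested. Catalase is also abundant in red blood cells, and the erythroid markers differed between the diets. Of 6 erythroid markers on the array, 4 fell, and their summed scaled intensity was 3998 to 6786 in deficient livers, against 12847 to 15271 in sufficient livers (exact permutation p = 0.0286, two-sided, the smallest that 4 against 4 can give). None of the 6 was too dim to test. The part of these markers in the catalase levels was not tested.

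Slc27a2 encodes an acyl-CoA synthetase for very long-chain fatty acids, which activates them for oxidation and also takes part in their uptake. Its probe set (D85100_at) had 13.94, 14.15, 14.04 and 13.99 in deficient livers, against 13.65, 13.71, 13.58 and 13.67 in sufficient livers. The groups did not overlap, and values within each diet lay close together. The means were 14.03 ± 0.09 in deficient livers and 13.65 ± 0.06 in sufficient livers (SD, n = 4 each), 1.3-fold higher in deficient livers. The difference of 0.38 (SE 0.08, 95% interval 0.19 to 0.56) lay just outside the threshold (limma adjusted p = 0.0514). Over 21 alternatives it ran from 0.31 to 0.41 with limma adjusted p of 0.00385 to 0.309, and it passed in 6 of them. One of those 6 scales with the control probe sets and takes the whole amount shift from the 2 µg arrays (limma adjusted p = 0.0499). It was the version run first, and the version reported here was adopted after both had been seen, so that choice decided on which side of the threshold Slc27a2 lies.

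Fabp1 encodes the liver fatty acid-binding protein, the main carrier of fatty acids in the hepatocyte cytosol. Its probe set (V01235_at) had 14.42, 14.07, 14.05 and 13.96 in deficient livers, against 13.98, 14, 13.98 and 14.10 in sufficient livers. The groups overlapped, and deficient liver 1 was the highest. The difference was 0.11 (SE 0.11, 95% interval -0.12 to 0.35, limma adjusted p = 0.713). It was 0.01 without deficient liver 1 and -0.02 under quantile normalization.

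The members differed in how much they varied among the numbered samples of 1 diet. The SD within diets, pooled over both, had a median of 0.24 over all probe sets tested. Slc27a2 had the lowest of the members at 0.08, at the 1.0 percentile, followed by the shared Acaa1 probe set and Fabp1 at 0.15 each. Acaa1b had 0.21 and Ehhadh 0.33. Cyp4a3 had the highest at 0.53, at the 92.4 percentile, followed by the probe set of Cyp4a2 and Cyp4a3 at 0.48 and the Cyp4a1 probe set M57718mRNA_s_at at 0.40.

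The amount of RNA used for the target was compared over all 14 arrays. No probe set was called between 2 µg and 10 µg (0.0%; 347 had an unadjusted limma p under 0.05), and none for an interaction of diet and amount (0.0%; 96 had an unadjusted p under 0.05). For the 12 member probe sets the difference between amounts, 2 µg minus 10 µg, ran from -0.10 to 0.20 (limma adjusted p 0.869 to 0.999). With diet and number as a block, which pairs the 2 amounts, 2 probe sets were called. None of the 12 member probe sets was among them (limma adjusted p 0.316 to 0.989). The diet difference at 2 µg minus that at 10 µg ran from -0.27 to 0.08 (limma adjusted p = 1 for all 12). With the same block no probe set was called for the interaction (limma adjusted p of at least 0.997 for the 12 member probe sets). Slc27a2 differed between the diets by 0.37 at 10 µg alone and 0.36 at 2 µg alone, and the Cyp4a1 probe set rc_AA924267_s_at by 0.75 and 0.76.

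Likeness of pattern was taken as the Pearson correlation over the 8 averaged values after the mean of each diet was removed, among 3128 genes. The genes most like Acaa1b were Rhoc (r = 0.98), Rbpms (0.97) and Ppp4r3b (0.96). Those most like Ehhadh were Il1rap (0.98), Jag2 (0.98) and Ndufa4l2 (0.97). Those most like Cyp4a1, by probe set M57718mRNA_s_at, were Bend3 (0.98), Rph3al (0.97) and Slc2a1 (0.94). The values come from the same 8 sets of arrays and the highest of 3128 correlations were taken, so they describe these livers alone. For Acaa1b they rest largely on sufficient liver 1, at 10.58 against 9.99, 10.02 and 10.09 in the other sufficient livers.

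The other genes of peroxisomal oxidation were taken as a list, of which 10 of 22 were on the array and tested. None passed in either direction, and 4 had an unadjusted limma p under 0.05 (14.5% over all probe sets tested). Of the 10 differences 3 were positive and 7 negative, with a median of -0.20. Acox2 and Ech1, with the smallest p-values, had positive differences, and the others of the 4 had negative ones. Acox2, the oxidase for bile acid precursors, had 11.21 ± 0.19 in deficient livers and 10.55 ± 0.38 in sufficient livers (SD, n = 4 each), a difference of 0.65 (limma adjusted p = 0.11). Ech1, an isomerase for unsaturated fatty acids, had a difference of 0.64 (limma adjusted p = 0.178).

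Among peroxisome assembly and other matrix genes, none of 17 tested passed (4 with an unadjusted limma p under 0.05), with a median difference of 0.00. Hao2, a peroxisomal hydroxy acid oxidase, had 11.58, 10.85, 11.36 and 10.67 in deficient livers, against 11.88, 11.95, 12.09 and 11.77 in sufficient livers. These did not overlap, and the difference was -0.81 (SE 0.19, limma adjusted p = 0.0598). Uox, urate oxidase of the peroxisome core, had a difference of 0.38 (limma adjusted p = 0.125). Among other Cyp4 genes and the steps after omega-oxidation, none of 10 passed in limma and 0 had an unadjusted p under 0.05, with a median of -0.02. The smallest p-values there were those of Cyp4f1 (-0.20, limma adjusted p = 0.448) and Adh4 (0.21, limma adjusted p = 0.658).

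Of the PPAR and RXR regulators, none of 10 tested passed (2 with an unadjusted limma p under 0.05), and the median was 0.18. Ppara, the receptor itself, had 7.31 ± 0.28 in deficient livers and 7.20 ± 0.12 in sufficient livers (SD, n = 4 each), a difference of 0.11 (SE 0.17, limma adjusted p = 0.849). Rxra, the main RXR of liver, had 8.80 ± 0.14 in deficient livers and 8.80 ± 0.08 in sufficient livers (SD, n = 4 each), a difference of 0.00 (SE 0.12, limma adjusted p = 0.997). Hnf4a, a hepatocyte nuclear receptor that also binds DR1 elements, had a difference of 0.33 (limma adjusted p = 0.244). Rxrb had a difference of 0.35 (limma adjusted p = 0.277).

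Of PPARα targets outside the peroxisome, 1 of 20 tested fell and none rose, and the median was -0.01. An unadjusted limma p under 0.05 was found for 7 of the 20, 4 with a negative and 3 with a positive difference, against 14.5% of all probe sets tested. The gene that fell was Plin2, which encodes a coat protein of lipid droplets. The brighter of the 2 Plin2 probe sets (rc_AA893280_at) had 10.90, 10.93, 10.92 and 11.26 in deficient livers, against 12.53, 11.63, 11.79 and 12.11 in sufficient livers. The groups did not overlap, and sufficient liver 1 was the highest, as it was for Acaa1b. The means were 11.00 ± 0.17 in deficient livers and 12.02 ± 0.40 in sufficient livers (SD, n = 4 each), 2.02-fold lower in deficient livers. The difference was -1.01 (SE 0.18, limma adjusted p = 0.0163); on the 2 µg arrays alone it was -0.97 (limma adjusted p = 0.115).

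**Figure D4:**
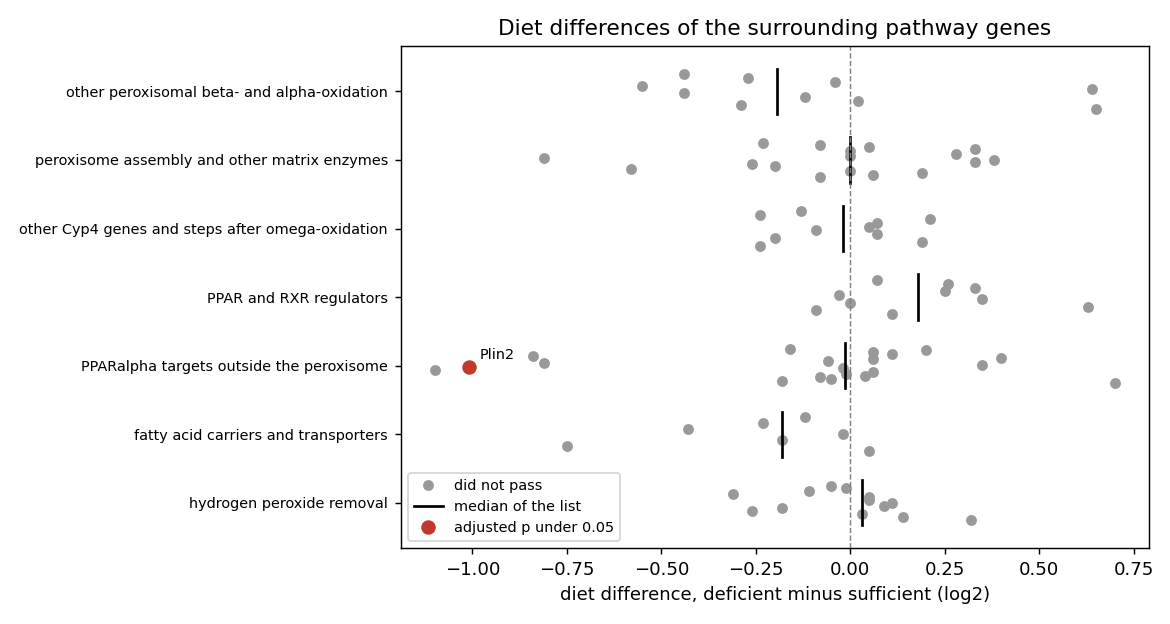
Diet difference, deficient minus sufficient on the log2 scale, of the tested genes in 7 lists of surrounding pathway genes. Each dot is 1 gene, by its brightest probe set, red where the limma adjusted p is under 0.05, and the black line is the median of the list. Plin2, at -1.01, is the 1 gene that passed, and the medians run from -0.20 to 0.18.

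Of the other fatty acid carriers and transporters, none of 7 passed (2 with an unadjusted limma p under 0.05), and the median was -0.18. Dbi, the acyl-CoA-binding protein, had a difference of -0.43 (limma adjusted p = 0.273) and Fabp5 of -0.75 (limma adjusted p = 0.34). Of other genes that remove hydrogen peroxide, none of 13 passed (2 with an unadjusted limma p under 0.05), and the median was 0.03. Gpx1, a glutathione peroxidase, had a difference of 0.32 (limma adjusted p = 0.162), and Prdx1, a peroxiredoxin, of -0.26 (limma adjusted p = 0.292).

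Markers of liver cell types were measured beside these genes. All 9 hepatocyte markers on the array were bright enough to test. All 9 had positive differences (median 0.17), none passed, and 2 had an unadjusted limma p under 0.05. Their summed scaled intensity was 242743 to 284115 in deficient livers, against 203597 to 262238 in sufficient livers (exact permutation p = 0.143, two-sided). Of the periportal markers 2 of 10 rose, with 9 positive differences and a median of 0.28. Of the pericentral markers 1 of 8 tested fell (Oat, -1.11), with 3 positive and 5 negative differences and a median of -0.22. Cyp2e1, another pericentral marker, had a difference of 0.43 (limma adjusted p = 0.0675). The pericentral sum was 60637 to 66492 in deficient livers, against 53952 to 64164 in sufficient livers (exact permutation p = 0.143, two-sided). Of the macrophage markers 1 of 7 tested rose, and all 7 had positive differences (median 0.28). Their summed scaled intensity was 9093 to 12073 in deficient livers, against 7280 to 7910 in sufficient livers (exact permutation p = 0.0286, two-sided). Of the stellate and fibroblast markers 1 of 8 tested rose (Vim, 0.80), with 4 positive and 4 negative differences and a median of -0.03. Their summed scaled intensity was 9108 to 12835 in deficient livers, against 8768 to 12101 in sufficient livers (exact permutation p = 0.543, two-sided). Of the endothelial markers 1 of 4 tested fell (Lyve1, -1.04), with 2 positive and 2 negative differences and a median of 0.08. The endothelial sum was 552 to 651 in deficient livers, against 675 to 807 in sufficient livers (exact permutation p = 0.0286, two-sided). Ahr, Lgr5, Axin2, Csf1r, Des, Vwf, Cd3d, Cd3g, Cd8a, Cd2 and Plin1 were too dim to test. None of the cholangiocyte (6), lymphocyte (6) and adipocyte (3) markers tested passed. The part of these cells in the members' differences was not tested. The log2 ratio of 3′ to 5′ control probe sets differed between the diets by -0.10 for beta-actin, 0.06 for GAPDH and 0.03 for hexokinase (exact permutation p = 0.457, 0.743 and 1, two-sided, n = 4 each).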

How the data were processed

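The authors deposited 1 table of probe set intensities from Affymetrix rat arrays, on a linear scale, 1 column per array. The program that computed the intensity values is not given in the sources used here. The deposited intensities of every array had a trimmed mean (2% off each end) of 1001.9 to 1002.1, so they had already been scaled to 1 level. Depth does not apply to arrays: the number of arrays limits the precision.

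The 59 control probe sets were left out of 8799. Arrays were scaled to a trimmed mean of 500, 16 was added and log2 taken. Dim probe sets, with a mean level below the 40th percentile (6.196), were not tested, and 5244 remained. Platform annotation supplied the symbols: 7006 of 8740 probe sets carry 1 symbol, 308 several and 1426 none listed; 6985 matched the RefSeq table of GRCr8 by Entrez identifier. For a gene of the surrounding lists, the brightest probe set stood for the gene.

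Before the diet comparison, each probe set's mean shift between RNA amounts (6 pairs) was taken out, and the arrays sharing a diet and number were averaged. The resulting 8 values went into limma 3.58.1 under R 4.3.3, using lmFit and a trended eBayes. Tests are two-sided, and Benjamini-Hochberg adjusted p-values under 0.05 count as calls. In their main form the amount and interaction comparisons used 14 separate arrays, without pairing the 2 amounts. Deviations from the group means correlated at 0.202 to 0.351 for arrays of the same diet and number at the 2 amounts (6 pairs), so these numbers were taken as pairs, and at -0.076 to 0.067 for the same number across diets (4 pairs), which were not.

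The members, the gene lists and the rule for named genes were chosen with earlier results of these data known. The rule names every member, list genes that passed or otherwise the 2 with the smallest p, Ppara and Rxra, and the 3 genes most like Acaa1b, Ehhadh and the brightest Cyp4a1 probe set; 1 further gene it names is not reported here. Sequences came from the RefSeq promoter table. Alternatives covered scaling, pseudocount, filter, trend, RNA amounts, blocks and leaving out each liver. Scaling without the control probe sets, and dividing the amount shift between both amounts, were settled after both versions had been run; the other version is among the alternatives.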

Additional observations from a re-analysis of the deposited data

Results flagged for a closer look

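Among the member probe sets, 26 groups of 4 averaged values were examined for a value far from the other 3, and 2 were found; chance alone gives about 1 in 20. For Acaa1b, sufficient liver 1 was at 10.58, against 9.99, 10.02 and 10.09 in the other sufficient livers, and it was high on both its 10 µg and its 2 µg array. For Fabp1, sufficient liver 4 was at 14.10, against 13.98, 13.98 and 14 in the other sufficient livers.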

How the results depend on the processing

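Acaa1b was called lower in all 21 alternatives to the diet fit, with differences of -1.23 to -1.02 and limma adjusted p of 1.1e-05 to 0.0326. Of the alternatives for single genes in the diet comparison, 277 kept their direction and their side of the threshold, 16 lost the call, 7 gained one and 13 changed sign. The lost calls were 15 for the Cyp4a1 probe set rc_AA924267_s_at and 1 for Plin2. The cause of these changes was not tested. The count of diet calls was 90; it was 33 on the 2 µg arrays alone, 250 when a random block for diet and number was fitted to 14 arrays, and 49 to 97 without 1 liver (58 without sufficient liver 3 and 49 without deficient liver 4). The count of called member probe sets was 2. It was 1 with median scaling, a pseudocount of 1, no filter, no trend, 10 µg alone, 2 µg alone or the number as a replicate block. It was 3 with a pseudocount of 64, the 60th percentile filter, the amount shift kept or scaling with the control probe sets. With the random block it was 4, and without 1 liver 1 to 2. The replicate block gave the Cyp4a1 probe set rc_AA924267_s_at a limma adjusted p of 0.0718 and called 2 probe sets between RNA amounts, where no block called 0; leaving out 1 liver gave 0 to 2 there. Slc27a2 passed with quantile normalization (0.0398), a pseudocount of 64 (0.0489), the 60th percentile filter (0.034), the amount shift kept (0.0495), the random block (0.00385), and in the version that scales with the control probe sets and takes the whole shift from the 2 µg arrays (0.0499). That version was run first and was made an alternative after seeing the data.

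Differences that changed sign were small. Cyp4a3 ran from -0.27 to 0.22 when 1 liver was left out (0.03 without sufficient liver 2 and 0.22 without deficient liver 3) and was at 0.08 at 10 µg alone. The Cat probe set rc_AA926149_g_at ran from -0.33 to 0.00 and Ppara from -0.02 to 0.20 when 1 liver was left out, and Fabp1 was at -0.02 with quantile normalization. Rxra was at -0.07 with median scaling and at 10 µg alone, -0.03 with quantile normalization, and from -0.05 to 0.05 when 1 liver was left out. With 4 values per diet, no detection calls used and probe sets shared by related genes, the precision of these comparisons is limited.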
